A study of Mus musculus with 12 samples.

Results

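Torin 1 and PP242 are chemically distinct inhibitors of the kinase mTOR, and both block it by occupying its ATP pocket. Their effects on transcription were set against each other in central regulatory T (cTreg) cells, the resting pool of Foxp3+ T cells. The comparison took 3 arrays of cells activated with PP242 and 3 of cells activated with Torin 1, 6 of the 12 arrays of the series. It was made over all 22180 genes that a transcript cluster of the array names with a single symbol, and no difference between groups entered the choice of genes. A gene named by more than 1 cluster was represented by its brightest one. The question was where the transcriptomes left by the 2 compounds differ, which a comparison of each with vehicle does not test.

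The cells were sorted as CD4+Foxp3-YFP+CD44loCD62Lhi from spleen and peripheral lymph nodes of Foxp3-YFP transgenic mice on the C57BL/6 background, whose reporter marks cells that transcribe Foxp3. Antibodies to CD3 and CD28, with recombinant IL-2, activated them for 20 h. The 3 activated groups received 500 nM PP242, 50 nM Torin 1 or the vehicle DMSO, and unstimulated cells at 0 h, also labelled as DMSO-treated, formed the fourth group, with 3 arrays each. The doses differ, so compound and dose cannot be told apart in any result given here. For cTreg cells treated with these inhibitors and read by flow cytometry, the paper names Foxp3-Cre mice, which express Cre recombinase from the Foxp3 promoter. Mice were mostly 4 to 6 weeks old. Whether mice were pooled is not stated in the sources used here, although the methods call the triplicates biological.

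mTOR works in complexes, mTORC1 and mTORC2, that relay antigen receptor, cytokine and nutrient signals. mTORC1 drives translation, ribosome production, glycolysis and nucleotide synthesis, and mTORC2 activates AKT, which keeps FOXO transcription factors out of the nucleus. FOXO1 sustains genes of resting T cells such as Il7r. T cell receptor signals meanwhile induce NR4A and EGR transcription factors, together with phosphatases of the DUSP family and Sprouty proteins that restrain the ERK pathway. Effector molecules such as CCR8, LAG-3 and PD-1 mark activated Treg cells.

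The values are log2 levels made by robust multichip averaging (RMA), and a difference of 1 is 2-fold. All 12 arrays were fitted together in limma, differences are given with their standard error (SE), and calls were made where the p, adjusted over the 22180 genes by Benjamini and Hochberg's method, was under 0.05. Array medians lay between 4.95 and 5.08, and the level under which olfactory and vomeronasal receptor genes mostly lie, 4.57, served as a guide to background. The cells carried their defining transcript: Foxp3 was at 11.73, 11.62 and 11.61 with PP242 and at 11.66, 11.67 and 11.58 with Torin 1, a difference of 0.02 ± 0.09 (SE, adjusted p = 0.963 in limma). The 8 measured T cell markers summed to 13.9 on each PP242 array and to between 13.8 and 13.9 on the Torin 1 arrays. Of the markers of 7 other cell classes 1 was called, Eomes among those of CD8 T and NK cells. The summed markers of that class ran from 8.89 to 9.02 with PP242 and from 9.11 to 9.12 with Torin 1. Those of stromal and endothelial cells ran from 9.81 to 9.95 with PP242 and from 9.48 to 9.64 with Torin 1, with none of 9 called and 3 under the background level on all 6 arrays, and the part of such cells in the results was not tested.

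Correlations over all clusters set PP242 and Torin 1 arrays little apart, but they were high between other groups too. They were 0.977 to 0.982 between a PP242 and a Torin 1 array, against 0.979 to 0.983 among PP242 arrays and 0.981 to 0.984 among Torin 1 arrays. PP242 arrays reached 0.9781 to 0.9845 with unstimulated and 0.9675 to 0.9725 with DMSO arrays. For Torin 1 arrays these values were 0.9762 to 0.9809 and 0.9749 to 0.9789. The median size of the difference over all genes was 0.12. In the fit, 87 genes were called (0.392% of 22180), of which 36 (0.162%) were higher and 51 (0.23%) were lower with PP242. In all, 2692 genes had an unadjusted p under 0.05. For each of the 87, the 3 PP242 arrays lay beyond the 3 Torin 1 arrays, as they did for 7.89% of all genes upwards and 9.1% downwards. The called genes had a median size of 0.69, and 10 (0.0451%) differed by 2-fold or more, 3 higher and 7 lower with PP242.

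These calls rest on few arrays. Of the 87, 19, 39 and 32 were still called without PP242 array 1, 2 or 3, and 29, 20 and 16 without Torin 1 array 1, 2 or 3. Between 58 and 73 were still called without a DMSO or unstimulated array. A fit of the 6 PP242 and Torin 1 arrays alone called 9 genes, and a fit with a robust, level-dependent estimate of the spread called 262. 12 genes were called in each of the 12 fits that left out an array, and they are Ccr8, Dusp4, Nr4a3, Lag3, Gadd45b, Spry1 and Mapkbp1 (lower with PP242) and Il7r, Slc28a2b, Bambi-ps1, Slamf6 and Gm19765 (higher). For other genes the number of those 12 fits that kept the call is given. Leaving out a DMSO or unstimulated array, as 6 of these fits did, changed neither mean compared. Dusp5, Ms4a4b, Hsph1 and Ifi208, given below as called in 6 of 12 fits, kept their calls in those 6 only. The genes nearest the threshold were A930006K02Rik (adjusted p = 0.0488) and Ipo4 (0.0484) inside it, and Ybx3 (0.0502) and St8sia6 (0.0509) outside it.

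**Figure D1:**
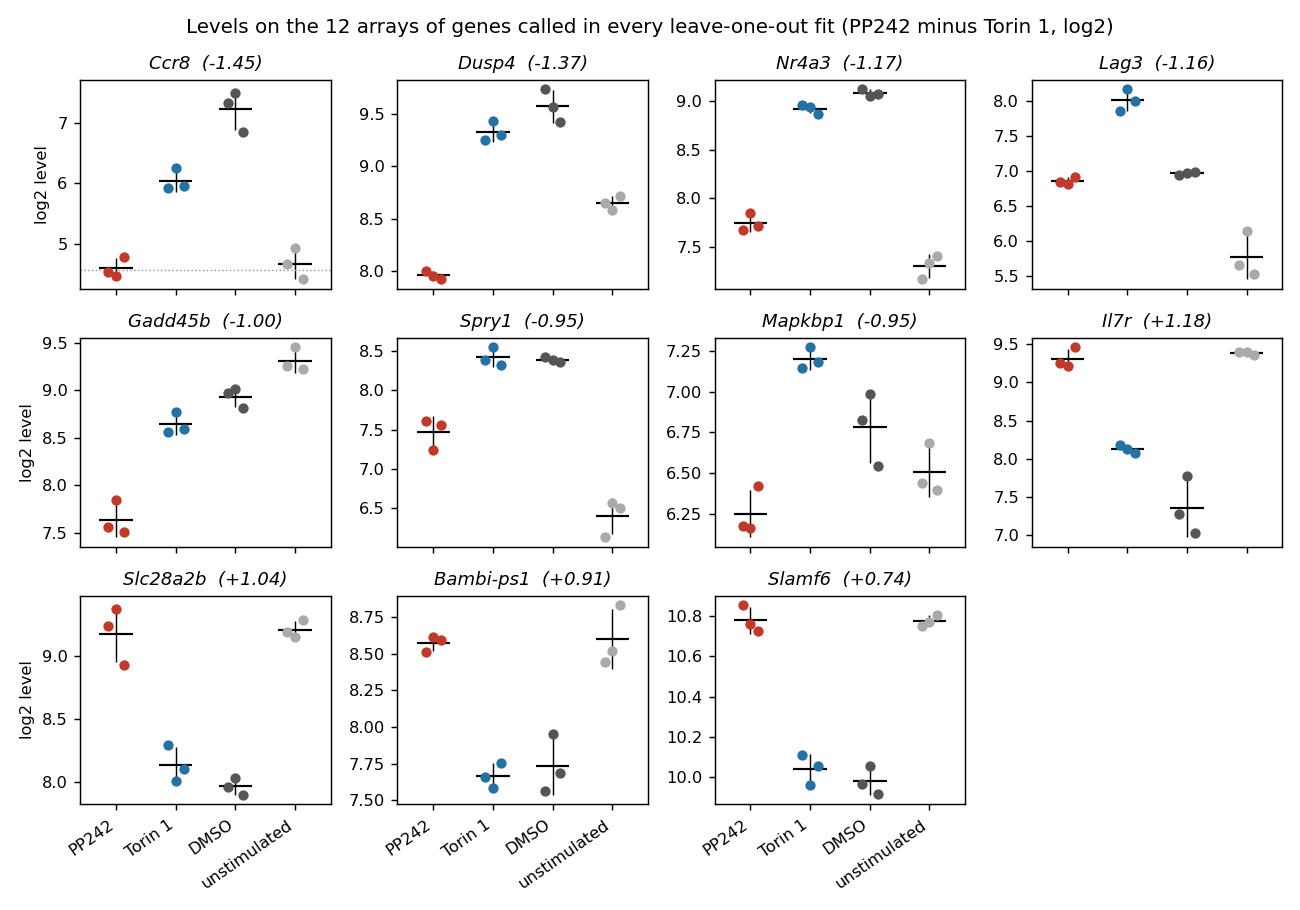
Log2 level (vertical axis, which does not start at 0) of 11 named genes called in each fit that left out an array, on the 3 arrays of each group (points), with the mean (horizontal bar) and SD (vertical bar), for PP242, Torin 1, DMSO and unstimulated cells; the number in each title is PP242 minus Torin 1 in log2. The dotted line in the Ccr8 panel is the background level of 4.57. In all 11 panels the PP242 points lie apart from the Torin 1 points.

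Of the 7 genes that were lower with PP242 in each fit that left out an array, Dusp4, Nr4a3, Spry1 and Gadd45b belong to the list of early T cell receptor response genes. Dusp4, a nuclear phosphatase that inactivates MAP kinases, was at 8.0, 7.95 and 7.93 with PP242, against 9.25, 9.43 and 9.30 with Torin 1, 9.74, 9.57 and 9.42 with DMSO and 8.65, 8.59 and 8.71 in unstimulated cells. The difference between the inhibitors was -1.37 ± 0.10 (SE, adjusted p = 5.55e-05 in limma), the smallest adjusted p of the comparison. Its 3 PP242 levels were below those of all 9 other arrays, whereas the Torin 1 levels overlapped those with DMSO. Nr4a3, an orphan nuclear receptor induced by antigen, was at 7.68, 7.85 and 7.71 with PP242, against 8.95, 8.93 and 8.87 with Torin 1, 9.12, 9.05 and 9.07 with DMSO and 7.17, 7.34 and 7.40 in unstimulated cells. It differed by -1.17 ± 0.10 (SE, adjusted p = 9.47e-05 in limma). For this gene the Torin 1 arrays lay just under the DMSO arrays, and the PP242 arrays lay just above the unstimulated ones.

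Spry1, the Sprouty member that dampens receptor signalling to ERK, was at 7.61, 7.24 and 7.55 with PP242, against 8.39, 8.55 and 8.32 with Torin 1, 8.42, 8.39 and 8.36 with DMSO and 6.13, 6.56 and 6.50 in unstimulated cells. The difference was -0.95 ± 0.13 (SE, adjusted p = 0.00734 in limma), and Torin 1 minus DMSO was 0.03 ± 0.13 (adjusted p = 0.933). Gadd45b, a stress-inducible regulator of p38 and JNK signalling, was at 7.56, 7.84 and 7.51 with PP242, against 8.56, 8.77 and 8.59 with Torin 1, 8.97, 9.01 and 8.81 with DMSO and 9.26, 9.45 and 9.22 in unstimulated cells. It differed by -1.0 ± 0.12 (SE, adjusted p = 0.00311 in limma). Gadd45b departs from the genes above in that activation lowered it, and the PP242 arrays were lowest of all 4 groups. Mapkbp1, which binds JNK, differed by -0.95 ± 0.13 (adjusted p = 0.00734 in limma), with 6.18, 6.16 and 6.42 with PP242 and 7.14, 7.27 and 7.18 with Torin 1. With the median over its clusters Mapkbp1 was not called, at -0.44 (adjusted p = 0.105 in limma).

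Not all members of these families were called. Of the 3 NR4A receptors, Nr4a1 was at 10.29, 10.24 and 10.35 with PP242 and averaged 10.99 ± 0.02 with Torin 1 (SD, n = 3), a difference of -0.69 ± 0.11 (SE, adjusted p = 0.0128 in limma, called in 7 of the 12 fits). Nr4a2 was not called at -0.56 (95% confidence interval -0.90 to -0.21, adjusted p = 0.166). Among 24 DUSP genes, Dusp5, a nuclear phosphatase specific for ERK, was the other one called besides Dusp4, at -0.53 ± 0.09 (adjusted p = 0.0254, called in 6 of 12 fits). Dusp6, the cytoplasmic ERK phosphatase, stood at means of 9.71 with PP242, 9.85 with Torin 1, 9.50 with DMSO and 6.69 in unstimulated cells, so activation had raised it in each treated group. PP242 minus Torin 1 for Dusp6 was -0.14 (95% interval -0.50 to 0.23, adjusted p = 0.808). None of 4 EGR factors was called, and they differed among themselves: Egr3 gave -0.66 (interval -0.97 to -0.35, adjusted p = 0.076), Egr2 -0.26 (-0.55 to 0.03, adjusted p = 0.486) and Egr1 0.03 (-0.25 to 0.32, adjusted p = 0.952). Spry1 was the 1 called of 7 Sprouty and Spred genes. These families were picked for description after values were seen, and 0.23% of all genes were called lower.

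**Figure D2:**
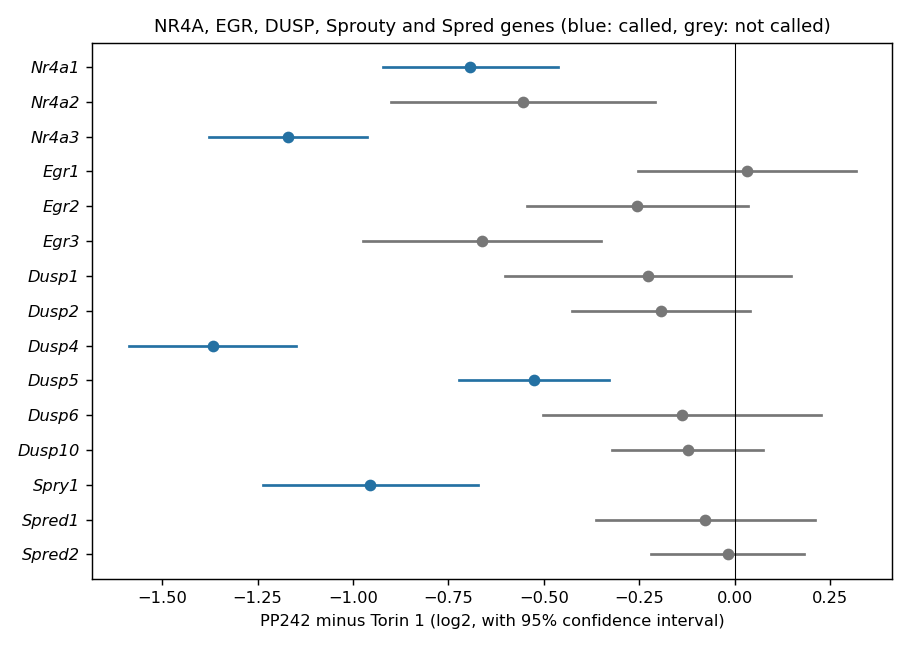
PP242 minus Torin 1 in log2 (horizontal axis) for 15 members of the NR4A, EGR, DUSP, Sprouty and Spred families; points are estimates, lines are 95% confidence intervals of single genes from the limma fit, not adjusted for the number of genes. Nr4a1, Nr4a3, Dusp4, Dusp5 and Spry1 (blue) were called, and the intervals of Egr1, Dusp6, Spred1 and Spred2 include 0.

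Across the list of early T cell receptor response genes, 9 of 51 measured members were lower with PP242 and none was higher, beside 0.23% and 0.162% of all genes. Its median difference was -0.19, against -0.01 over all genes. The list was written by hand with earlier results of these data known. None of its members lay under the background level on all 6 arrays, whereas 7242 of all genes did. Among genes raised on activation, 1.57% were lower with PP242. Beyond the genes above, the called members were Tnfrsf9, which encodes the costimulatory receptor 4-1BB (-0.64 ± 0.10, adjusted p = 0.0128 in limma, called in 8 of 12 fits), Nfkb2, a subunit precursor of the alternative NF-kB pathway (-0.56 ± 0.11, adjusted p = 0.0417, 1 of 12 fits), and Irf8 (-0.95 ± 0.19, adjusted p = 0.0452, 3 of 12 fits). Irf8, of the interferon regulatory factors, was among the genes that activation raised most. It was at 6.64, 6.14 and 5.97 with PP242, against 6.86, 7.43 and 7.30 with Torin 1, 9.45, 9.39 and 9.52 with DMSO and 5.53, 5.72 and 6.06 in unstimulated cells. Irf4, the related factor that effector Treg cells need, was not called at -0.29 (interval -0.55 to -0.03, adjusted p = 0.355), with means of 9.63, 9.92, 9.76 and 6.89 in PP242, Torin 1, DMSO and unstimulated cells. Fos, Cd69 and Il2ra, which T cell receptor signals also induce, had differences of 0.13, 0.03 and -0.06 (adjusted p = 0.798, 0.934 and 0.851). Rgs16, which shortens G protein signals, and Ubash3b, a phosphatase that opposes proximal T cell receptor kinases, were lower with PP242 by -0.81 ± 0.14 and -0.60 ± 0.11 (adjusted p = 0.025 and 0.0329, called in 7 and 6 of 12 fits).

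The letters before the transcription start of Nr4a3 and Nr4a1 are shown because both genes were lower with PP242 and because RefSeq's windows (250 bases before to 50 after the start, GRCm38.p6) hold 4 copies each of TGACG, the half-site of the cAMP response element. The 250 bases before the start are printed, Nr4a3 from chr4:48045055-48045304 and Nr4a1 from chr15:101266596-101266845, both on the plus strand, with the half-sites (TGACG or, on the other strand, CGTCA) in capitals.
Nr4a3: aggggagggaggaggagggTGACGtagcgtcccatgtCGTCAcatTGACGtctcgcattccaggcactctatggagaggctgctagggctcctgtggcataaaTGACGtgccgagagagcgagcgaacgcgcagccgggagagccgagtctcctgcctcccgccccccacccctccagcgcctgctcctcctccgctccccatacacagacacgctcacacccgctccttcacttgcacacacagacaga
Nr4a1: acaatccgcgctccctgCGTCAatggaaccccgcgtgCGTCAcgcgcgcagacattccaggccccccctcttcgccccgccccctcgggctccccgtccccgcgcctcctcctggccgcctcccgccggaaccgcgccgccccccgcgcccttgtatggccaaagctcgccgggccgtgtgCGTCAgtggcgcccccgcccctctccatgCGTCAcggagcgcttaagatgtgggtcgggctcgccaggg
The half-sites begin 231, 213, 205 and 147 bases before the start of Nr4a3 and 233, 213, 69 and 40 bases before that of Nr4a1. Of the 16918 tested genes with a window, 62 (0.366%) held 4 or more. Mturn, which was higher with PP242 (0.73 ± 0.14, adjusted p = 0.0365 in limma, called in 4 of 12 fits), was among them. Its matches began 72, 69, 14 and 11 bases before the start, and each pair overlapped as the full element TGACGTCA. That full element lay in 2.22% of lower, 3.57% of higher and 2.64% of all windows. At least 1 half-site, on either strand, lay in the windows of 20 of 45 genes that were lower with PP242 (44.4%), of 9 of 28 that were higher (32.1%) and of 26.9% of all. Windows for Dusp4 and Lag3 were not analysed here. A CArG box, the serum response element, lay 72 bases before the start of Dusp5, and 0.431% of all windows held one (any of 8 spellings searched on both strands). A match describes letters and shows neither binding nor a cause.

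Effector Treg genes included Ccr8 and Lag3, which were called lower with PP242 in each fit that left out an array, and Ccr8 gave the largest fall of all called genes. Ccr8, a chemokine receptor of activated and tissue Treg cells, was at 4.54, 4.46 and 4.78 with PP242, against 5.92, 6.26 and 5.95 with Torin 1, 7.32, 7.49 and 6.84 with DMSO and 4.67, 4.93 and 4.41 in unstimulated cells. The difference was -1.45 ± 0.17 (SE, adjusted p = 0.00311 in limma), 2.73-fold. With PP242 Ccr8 lay around the background level of 4.57 and within the range of unstimulated cells, so its fold may be understated, whereas with Torin 1 it lay between those and the DMSO arrays. Lag3, an inhibitory receptor that binds MHC class II, was at 6.84, 6.82 and 6.92 with PP242, against 7.87, 8.17 and 8.01 with Torin 1, 6.94, 6.97 and 6.99 with DMSO and 5.65, 6.14 and 5.53 in unstimulated cells. The difference was -1.16 ± 0.14 (SE, adjusted p = 0.00311 in limma). For Lag3 it was the Torin 1 arrays that left the vehicle level: Torin 1 minus DMSO was 1.05 ± 0.14 (adjusted p = 0.000542), and PP242 minus DMSO was -0.11 ± 0.14 (adjusted p = 0.67). Pdcd1, which encodes PD-1, was at 6.94, 6.66 and 6.15 with PP242, against 7.41, 7.42 and 7.53 with Torin 1, 8.05, 8.06 and 7.99 with DMSO and 6.78, 6.59 and 6.51 in unstimulated cells. It differed by -0.87 ± 0.16 (adjusted p = 0.0307 in limma, called in 7 of 12 fits).

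Ccr8, Lag3 and Pdcd1 were the 3 called of 32 effector Treg genes, all lower with PP242, beside 0.23% of all genes. The median of the list was -0.14. Tigit, another inhibitory receptor, was not called at -0.85 (adjusted p = 0.256). None of 26 Treg lineage genes was called, Foxp3, Il2ra, Ctla4 and Ikzf2 included, and their median was -0.06. Tnf was the 1 called of 40 cytokines and chemokines, at 7.81, 8.05 and 8.14 with PP242, against 8.66, 8.66 and 8.70 with Torin 1 and 9.24, 9.26 and 9.22 with DMSO. It differed by -0.67 ± 0.11 (adjusted p = 0.0144 in limma, 8 of 12 fits). Eomes, a T-box factor of cytotoxic cells, was lower at 4.70, 4.42 and 4.18 with PP242, against 5.60, 5.20 and 5.24 with Torin 1, close to background in both, and kept its call in 1 of 12 fits (adjusted p = 0.0462).

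In the lists of glycolysis, ribosome biogenesis, DNA replication and amino acid supply, single members were lower with PP242 and none was higher. Over all genes 0.23% were lower and 0.162% higher. Slc16a1, the monocarboxylate transporter MCT1 that carries lactate, was at 6.37, 5.96 and 6.30 with PP242, against 6.99, 7.12 and 7.06 with Torin 1, 7.72, 8.06 and 7.73 with DMSO and 5.72, 5.78 and 5.82 in unstimulated cells. It differed by -0.85 ± 0.13 (SE, adjusted p = 0.0128 in limma, called in 10 of 12 fits). The glycolytic enzyme Tpi1 was the other called of 22 glycolysis genes (-0.55 ± 0.11, adjusted p = 0.048, 1 of 12 fits), and the median of the list was -0.15. Hk2, the inducible hexokinase, was not called at -0.36 (interval -0.63 to -0.08, adjusted p = 0.271), with 4.84, 4.89 and 5.17 with PP242 against 5.38, 5.20 and 5.39 with Torin 1. Slc2a3, a glucose transporter, had the highest value of the list at 0.51 (adjusted p = 0.0928).

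Among 64 ribosome biogenesis genes, Nop16 and Nop2, nucleolar proteins of the large subunit pathway, were lower by -0.67 ± 0.10 and -0.61 ± 0.12 (adjusted p = 0.0128 and 0.0442, called in 9 and 0 of 12 fits). Their median was -0.23 and 55 of 64 were below 0, with the rest of the list uncalled. DNA replication genes gave 3 called of 49, all lower: Fen1, the flap endonuclease (-0.76 ± 0.15), Uhrf1, which maintains DNA methylation (-0.71 ± 0.13), and Mcm5, a helicase subunit (-0.61 ± 0.12). These 3 kept their calls in 2, 3 and 3 of 12 fits, and the other 5 of the 6 MCM2 to MCM7 subunits had differences from -0.44 to -0.11 that were not called. Fen1 was also not called with the median over its clusters. None of 64 mitosis genes was called (median -0.02). Slc7a1, an arginine and lysine transporter, was the 1 called of 39 ATF4 and amino acid supply genes (-0.64 ± 0.10, adjusted p = 0.0128, 9 of 12 fits). Srm, which makes spermidine, was lower by -0.49 ± 0.10 and the chaperone Hsph1 by -0.53 ± 0.09 (adjusted p = 0.0417 and 0.0263, called in 2 and 6 of 12 fits). Mthfd1, a folate enzyme of purine and thymidylate supply, was lower by -0.58 ± 0.11 (adjusted p = 0.0365, 4 of 12 fits).

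No gene was called among 67 nuclear genes of oxidative phosphorylation (median -0.03), 68 of the mitochondrial ribosome (-0.12), 19 of cholesterol synthesis (-0.20), 47 cytosolic ribosomal proteins (-0.08), 43 of the proteasome (-0.07), 47 of lysosomes and autophagy (0.01) or 53 components of the mTOR and PI3K pathway (-0.05). In the same order, 41, 56, 16, 32, 35, 22 and 32 members were below 0. Some lists without a call thus still leaned lower with PP242. Mrps28, a mitochondrial ribosomal protein, was at means of 6.71 with PP242 and 6.97 with Torin 1 (interval of the difference -0.68 to 0.15, adjusted p = 0.633), and the endosomal tether Eea1 was at 7.38 and 7.69 (interval -0.55 to -0.08, adjusted p = 0.26). A median SE of 0.13 per gene limits these statements, so small differences were not detectable with 3 arrays a group.

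**Figure D3:**
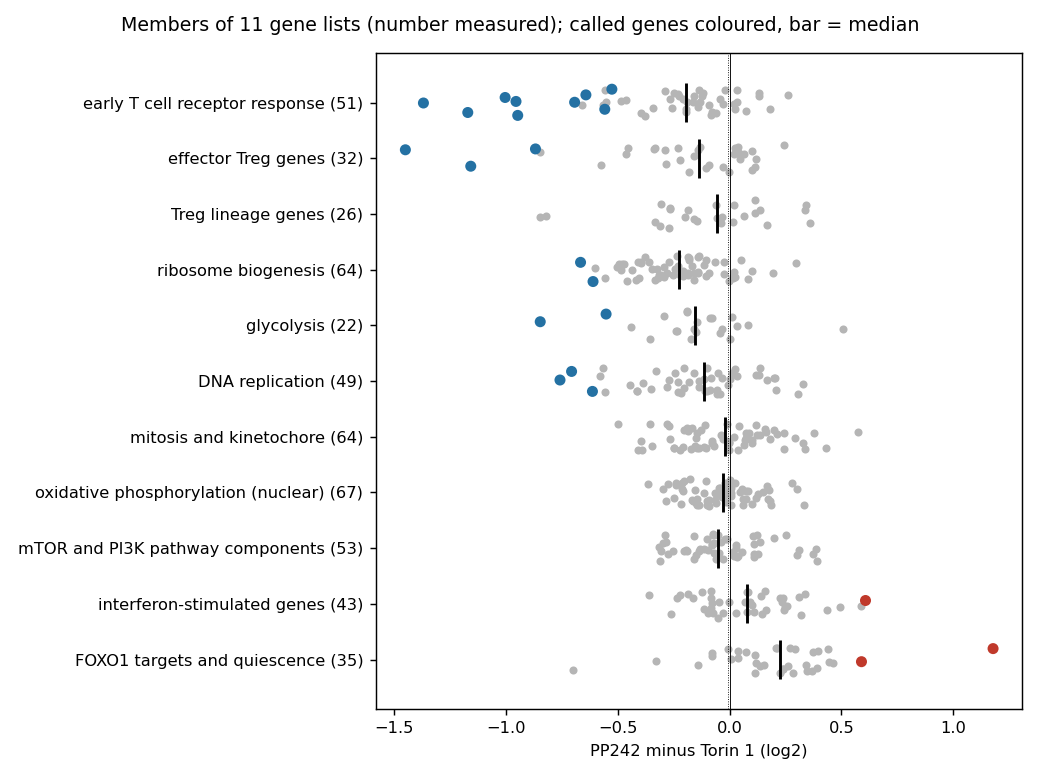
PP242 minus Torin 1 in log2 (horizontal axis) of each measured member of 11 gene lists, with the number measured in brackets; red points were called higher and blue points lower with PP242, grey points were not called, black bars are list medians and the dotted line is the median over all genes (-0.01). The early T cell receptor list has 9 blue points and the FOXO1 and quiescence list 2 red ones, while the mitosis, oxidative phosphorylation and mTOR lists have none; vertical scatter within a row has no meaning.

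Of the 36 genes higher with PP242, 31 were genes that activation lowered, and in several of them the PP242 arrays reached the level of unstimulated cells. Il7r, the interleukin-7 receptor chain and a FOXO1 target, was at 9.25, 9.21 and 9.46 with PP242, against 8.18, 8.13 and 8.08 with Torin 1, 7.27, 7.77 and 7.03 with DMSO and 9.39, 9.39 and 9.36 in unstimulated cells. The difference was 1.18 ± 0.15 (SE, adjusted p = 0.00503 in limma). The PP242 levels overlapped those of unstimulated cells, and the Torin 1 levels lay between DMSO and unstimulated cells. Slc28a2b, a gene of the concentrative nucleoside transporter family, was at 9.23, 9.36 and 8.92 with PP242, against 8.29, 8.01 and 8.10 with Torin 1, 7.96, 8.03 and 7.90 with DMSO and 9.19, 9.15 and 9.28 in unstimulated cells. It differed by 1.04 ± 0.12 (SE, adjusted p = 0.00311 in limma). Slc28a2b has a close paralogue, so its probes may read both.

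Slamf6, a receptor of lymphocyte contacts and the 1 called higher of 32 inhibitory and costimulatory receptors, had its PP242 arrays on the level of unstimulated cells and its Torin 1 arrays on that of DMSO. It was at 10.86, 10.76 and 10.73 with PP242, against 10.11, 9.96 and 10.05 with Torin 1, 9.97, 10.06 and 9.92 with DMSO and 10.75, 10.77 and 10.81 in unstimulated cells. The difference was 0.74 ± 0.09 (SE, adjusted p = 0.00359 in limma). The pseudogene Bambi-ps1 showed the same order, at 8.51, 8.61 and 8.59 with PP242 against 7.66, 7.58 and 7.76 with Torin 1 (0.91 ± 0.13, adjusted p = 0.00734 in limma), and its signal cannot be told apart here from that of its parent gene. The predicted gene Gm19765 differed by 0.74 ± 0.10 (adjusted p = 0.00734).

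Of 30 genes of proximal T cell receptor signalling, 1 (Themis) was called higher and 1 (Ubash3b) lower, and their median was 0.07. The other genes described with Themis here are from outside that list and were grouped after values were seen. Trat1, a transmembrane adaptor of the receptor complex, was at 10.03, 10.16 and 10.01 with PP242, against 9.30, 9.40 and 9.35 with Torin 1 and 9.24, 9.03 and 8.94 with DMSO (0.72 ± 0.10, adjusted p = 0.0108 in limma, called in 11 of 12 fits). Trat1 with PP242 also exceeded unstimulated cells, at 9.43, 9.43 and 9.59. Skap1, an adaptor that links the receptor to integrins, Itga4, the integrin alpha 4 chain, and Themis, a regulator of receptor signals, were higher by 0.70 ± 0.11, 0.65 ± 0.10 and 0.62 ± 0.12 (adjusted p = 0.0144, 0.0134 and 0.0365, called in 8, 8 and 5 of 12 fits). The complement regulators Cd55 and Cd46 rose by 0.73 ± 0.13 and 0.85 ± 0.15 (adjusted p = 0.0292 and 0.0263, 7 of 12 fits each). Ms4a6c and Ms4a4b, members of the MS4A family of membrane proteins, were higher by 0.83 ± 0.15 and 0.59 ± 0.10 (adjusted p = 0.0263 and 0.0257, called in 7 and 6 of 12 fits). They were the 2 called of 20 MS4A genes, beside 0.162% of all genes called higher. The family was picked after values were seen, and its sequences are alike enough that probes may be shared.

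Il7r and Ms4a4b were the 2 called of 35 FOXO1 targets and quiescence genes, both higher, beside 0.162% of all genes. The median of that list was 0.22, and 6 of 35 were below 0. Klf2 and S1pr1, which keep T cells recirculating, gave 0.04 (adjusted p = 0.936) and 0.37 (adjusted p = 0.145), and Ccr7, the lymph node homing receptor, gave -0.33 (interval -0.52 to -0.14, adjusted p = 0.133). P4ha1, a collagen prolyl hydroxylase subunit, was the 1 called of 24 HIF1 targets (0.51 ± 0.10, adjusted p = 0.0402) and lost its call in all 12 fits that left out an array.

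A small set of higher genes belongs to the Ifi200 family, interferon-inducible proteins of the PYHIN type on chromosome 1. Ifi209 was at 9.87, 9.73 and 9.86 with PP242 and at 9.11, 9.32 and 8.96 with Torin 1 (0.69 ± 0.11, adjusted p = 0.0128 in limma, 8 of 12 fits). Mndal was at 9.84, 9.77 and 10.12 with PP242, against 9.16, 9.18 and 9.32 with Torin 1, 9.21, 9.09 and 9.20 with DMSO and 9.24, 9.24 and 9.25 in unstimulated cells (0.69 ± 0.11, adjusted p = 0.0128, 10 of 12 fits). Mndal thus stood apart with PP242 from all 3 other groups, which lay together. Ifi208 had the largest called rise, 1.30 ± 0.23 (adjusted p = 0.0298, 6 of 12 fits), at 5.48, 5.61 and 5.80 with PP242 and 4.54, 3.86 and 4.60 with Torin 1, where it was around background. These 3 were called of 11 family members, beside 0.162% of all genes called higher. The family was picked after values were seen, and its near-identical copies make the assignment of probes uncertain. Among 43 interferon-stimulated genes only Ifi27 was called (0.61 ± 0.11, adjusted p = 0.0329, 4 of 12 fits) and the median was 0.08. Ifit2 and Ifit1 gave 0.59 and 0.44 (adjusted p = 0.205 and 0.533), and Isg15 gave -0.08 (adjusted p = 0.854).

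The bases before Ifi208 and Mndal are shown because both hold GAAA repeated after any 2 bases, the core of the interferon-stimulated response element. The 100 bases before the RefSeq start are given for Ifi208 (chr1:173673565-173673664, plus strand) and for the more upstream start of Mndal (chr1:173880188-173880287, minus strand), GRCm38.p6, with the motif in capitals.
Ifi208: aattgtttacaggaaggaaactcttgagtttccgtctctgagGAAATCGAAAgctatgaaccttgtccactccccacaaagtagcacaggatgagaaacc
Mndal: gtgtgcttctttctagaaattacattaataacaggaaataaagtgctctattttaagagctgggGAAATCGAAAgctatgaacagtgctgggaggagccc
Both carried GAAATCGAAA on the strand of the gene, 58 and 36 bases before the start, inside a run of 20 identical letters. Over both strands the motif was in the windows of 8 of 28 higher genes (28.6%), of 1 of 45 lower genes (2.22%) and of 3.88% of all 16918 genes. The 8 were Ifi208, Mndal, Trim34a, Cd46, Selenop, Slc28a2b, Arid4b and A930006K02Rik, and the 1 was Eomes. The window of Ifi209, the other called member of the Ifi200 family, held no match. Related copies such as Ifi208 and Mndal are not independent of each other. It was 1 of 9 motifs searched, which were chosen with values seen, and no test was made. The motif letters CACGTG (E box) were in 15.6% of lower, 3.57% of higher and 9.22% of all windows. Those of AP-1 (TGANTCA) were in 13.3% of lower, 17.9% of higher and 8.39% of all windows, and the FOXO letters GTAAACA in 8.89%, 7.14% and 3.53%, in the same order.

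PP242 minus Torin 1 tended to run opposite to the change on activation, measured as DMSO minus unstimulated. The 2 mean differences share no arrays, but the calls of both take their spread from all 12. Activation here cannot be told apart from 20 h in culture. It raised 2612 genes (11.8%) and lowered 2678 (12.1%). Of the 51 genes lower with PP242, 41 (80.4%) had been raised by activation, and of the 36 genes higher with PP242, 31 (86.1%) had been lowered. With each spread taken only from the 6 arrays compared, these counts were 4 in place of 41 and 3 in place of 31. No gene raised on activation was called higher with PP242, and Gadd45b and Myb were the 2 lowered ones that were called lower. Myb, a transcription factor of progenitor cells, was at 8.62, 8.63 and 8.46 with PP242, against 9.47, 9.24 and 9.15 with Torin 1 (-0.72 ± 0.11, adjusted p = 0.0128 in limma, 8 of 12 fits).

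Over all genes of each class, called ones included, the median of PP242 minus Torin 1 was -0.15 for those raised on activation, 0.11 for those lowered and -0.002 for the 16890 others. It ran from -0.49 for the 52 genes raised by 2 or more on the log2 scale, of which 11 (21.2%) were lower with PP242, to 0.30 for the 19 genes lowered by 1.5 or more, of which 2 were higher. It was 0.25 for the 168 genes lowered by 1 to 1.5, of which 10 (5.95%) were higher. Across 22180 genes the correlation of PP242 minus Torin 1 with the change on activation was -0.425 (Pearson) and -0.39 (Spearman). Genes are not independent replicates, and both differences carry each probe set's own sensitivity. On the first principal component, which held 40.8% of the variance, the PP242 arrays scored -15.4, -9.40 and -8.11 and the Torin 1 arrays 1.66, 5.11 and 5.53, against 32.3 to 37.0 with DMSO and -29.7 to -25.7 in unstimulated cells. On that component PP242 arrays lay nearer to unstimulated cells than Torin 1 arrays did, with no overlap of the 2 groups.

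**Figure D4:**
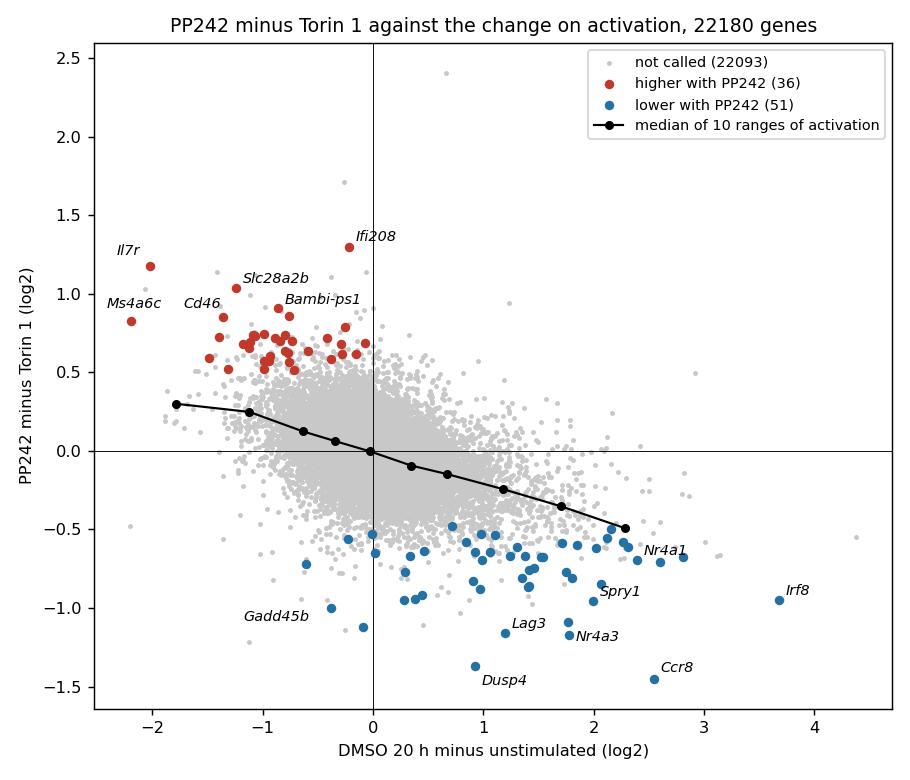
PP242 minus Torin 1 (vertical axis, log2) against DMSO at 20 h minus unstimulated (horizontal axis, log2) for 22180 genes; grey points were not called, red points (36) were called higher and blue points (51) lower with PP242, and the black line joins the medians of 10 ranges of the activation change. Blue points lie mostly right of 0 and red points mostly left of 0, and the medians fall to -0.49 at the right.

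For the called genes the comparisons with vehicle, which share arrays with PP242 minus Torin 1, are given side by side. The genes were chosen by PP242 minus Torin 1, so the gap between the 2 compounds in these medians follows from the choice. Over the 41 genes raised on activation and lower with PP242, the median change was -1.24 for PP242 minus DMSO, -0.39 for Torin 1 minus DMSO and 1.46 on activation. Over the 31 genes lowered on activation and higher with PP242, it was 1.03 for PP242 minus DMSO, 0.33 for Torin 1 minus DMSO and -0.95 on activation. Cdca7, a gene induced in proliferating cells, shows a case in which both compounds lowered the level: it was at 7.03, 7.09 and 6.69 with PP242, against 7.67, 7.57 and 7.59 with Torin 1, 9.07, 9.07 and 8.92 with DMSO and 6.28, 6.13 and 6.22 in unstimulated cells (PP242 minus Torin 1 -0.67 ± 0.11, adjusted p = 0.0222 in limma, 7 of 12 fits). Dusp4, Nr4a3 and Spry1 show the other case, in which Torin 1 minus DMSO was -0.25, -0.16 and 0.03 (adjusted p = 0.17, 0.38 and 0.933) and PP242 minus DMSO was -1.62, -1.33 and -0.92 (adjusted p = 5.58e-07, 1.36e-06 and 0.000279). The rule for a gene on opposite sides of vehicle, called against DMSO upwards with one compound and downwards with the other, found none.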

How the data were processed

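cTreg cells were profiled on GeneChip Mouse Gene 2.0 ST arrays after WT Pico amplification. The authors made the deposited log2 values by RMA, which corrects background, equalizes array quantiles and sums up probes, and the submitters' notes name Partek 6.6, whereas the paper's methods name another version. The clusters' genome build and annotation: not given in the sources used here. RMA draws arrays together, so a shift of all genes would not show. Of 41345 clusters, 23521 had 1 gene symbol, 1820 several and 16004 none; 1082 genes had more than 1 cluster. RefSeq (GRCm38.p6) knew 21994 of the 22180 gene identifiers and gave chromosomes and promoter windows.

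R 4.3.3 and limma 3.58.1 fitted 4 group means (lmFit, eBayes) with no filter, after a check on simulated data; the paper's methods name an ANOVA, run as an alternative. The call rules, 95% intervals and SE come from that fit. The number of arrays limits the precision, and p-values measure the spread among the triplicates. The background level of 4.57 is the 90th percentile of the means of 1394 olfactory and vomeronasal receptor genes. Named genes were 5 that the paper names, the 12 largest called rises and falls, and up to 4 called members per list (otherwise 2 as values), passing over predicted genes; some further genes, families and motifs were added after values were seen. The members and the hand-written lists were chosen with earlier results of these data known. Alternatives were normalization, a filter on dim genes, the cluster per gene, the empirical Bayes step, array weights, the arrays and replicate numbers in the fit, the threshold, and each array left out.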

Additional observations from a re-analysis of the deposited data

How the results depend on the processing

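The count of called genes, 87, was 33 with all clusters in the fit, 262 with a robust empirical Bayes step that follows the mean level (trend), 9 with only the 6 arrays compared and 13 at an adjusted p under 0.01, and 17 to 84 when an array was left out. They numbered 97 with quantile normalization, 80 with centred arrays, 128 with the filter on dim genes (14494 genes left), 79 with medians over clusters, 80 without the empirical Bayes step and 79 with array weights. A like count can hold other genes: of the 80 called without the empirical Bayes step, only 44 were among the 87. The count at 2-fold or more, 10, was 6 with only the 6 arrays compared, and 7 to 11 when an array was left out. The count of genes raised on activation and lower with PP242, 41, was 13, 103, 4 and 5 with all clusters, the robust trend, only the 6 arrays and the stricter threshold, and 6 to 35 when an array was left out. The count of genes lowered on activation and higher with PP242, 31, was 14, 101, 3 and 6 under those settings, 49 with the filter on dim genes and 7 to 32 when an array was left out. None of the 87 differences changed sign under any alternative run, and 7 were called under all of them. Mapkbp1, Fen1, Irf8 and Myb were among the genes that lost their calls with medians over clusters. Their smallest differences over the alternatives that kept all arrays or whole groups were -0.44, -0.21, -0.64 and -0.42. Replicate numbers did not pair the arrays: deviations of same-numbered arrays correlated between -0.072 and 0.059 over 18 pairs. With the replicate number as a block, 60 genes were called, 28 of them raised on activation and lower and 19 lowered on activation and higher with PP242. Gm20110 and Olfr341 had means under 4.57 in all 4 groups, and levels near it limit Ccr8, Ifi208 and Eomes.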

Other observations

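Further genes that were lower with PP242 than with Torin 1 encode enzymes, cytoskeletal and surface proteins, and they were named after values were seen. Myo1e, an unconventional myosin, was at 6.55, 6.33 and 5.91 with PP242, against 7.47, 7.0 and 7.60 with Torin 1 and 7.68, 7.84 and 7.43 with DMSO (-1.09 ± 0.20, SE, adjusted p = 0.0365 in limma, called in 5 of the 12 fits that left out an array). Alcam, an adhesion molecule that binds CD6, was at 6.25, 6.12 and 6.29 with PP242, against 7.05, 7.17 and 6.87 with Torin 1 (-0.81 ± 0.13, adjusted p = 0.0149, 8 of 12 fits). Rhoq, a small GTPase, was lower by -0.67 ± 0.10 (adjusted p = 0.0128, 10 of 12 fits) and Sh3rf1, a scaffold of JNK signalling, by -0.77 ± 0.12 (adjusted p = 0.0128, 8 of 12 fits). Sh3rf1 is 1 of 8 genes lower with PP242 that were called neither higher nor lower on activation, although they may have changed. The others were Mapkbp1, Ahi1, Eomes, Nfkb2, Kctd13 and 2 predicted genes.

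Among higher genes, Trim34a, a TRIM protein, was at 9.78, 9.57 and 9.85 with PP242, against 9.01, 9.21 and 9.07 with Torin 1, 8.85, 8.75 and 8.79 with DMSO and 9.43, 9.42 and 9.31 in unstimulated cells (0.64 ± 0.10, adjusted p = 0.0149 in limma, 8 of 12 fits). Its PP242 levels exceeded those of all 9 other arrays. Otulinl and the selenium carrier Selenop were higher by 0.72 ± 0.12 and 0.58 ± 0.10 (adjusted p = 0.0159 and 0.0164, 7 of 12 fits each), and their PP242 levels, at 8.81 to 9.10 and 8.22 to 8.34, also lay above those of unstimulated cells, at 8.55 to 8.77 and 7.96 to 8.10, a difference that was not tested.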
